A study of Mus musculus with 8 samples.

Results

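Wnt pathway and stem cell genes were followed in colon RNA of 8 male mice, with 1 mouse on each Agilent 2-colour array. The genes were picked by their names, with earlier results of these data known: all Wnt, Frizzled (Fzd), Sfrp and Dkk genes in the authors' table, plus 21 named genes of the pathway and of the crypt. The choice gave 51 genes of 28098 gene names, read by 82 of 41174 probes. Of these 51 genes, 29 had 1 probe and 22 had more than 1. Of the 21 names, 7 stood on no probe in the table, and 5 of these 7 genes were found under another name and are described apart.

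Wnt ligands bind Frizzled receptors together with the co-receptors Lrp5 and Lrp6, and thereby keep beta-catenin from being degraded by a complex that holds Apc and Axin. Beta-catenin then acts with TCF/LEF transcription factors on target genes such as Axin2, Myc, Cd44 and Lgr5. In the colon the signal is strongest at the base of the crypts, where it keeps the Lgr5+ stem cells dividing, and R-spondins raise it through the receptors Lgr4 and Lgr5.

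One group held 4 Mdr1a-/- mice whose colon was scored high for histological injury, and the other held 4 mice labelled FVB/N with a low score. Mdr1a-/- mice carry a germline disruption of Abcb1a, which encodes a drug efflux pump, share the FVB/N background with the controls, and are used as a model of inflammatory bowel disease. All 8 mice were given the powdered AIN-76A control diet and were 21 to 24 weeks old. The mice were picked for the arrays on their score, so genotype and score cannot be told apart. Each sample carried Cy3 and was read against a Cy5 reference, a pool of RNA from Swiss mice that held fetuses along with adult liver, kidney, colon and small intestine. A level is therefore given as log2(sample / reference), and a value under 0 means less RNA of the gene than in a pool that includes fetal tissue.

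Between 67% and 86.3% of all probes were above background on an array, where background was the 95th percentile of 314 negative control spots. The arrays were scanned on 3 days, and only days 2 and 3 held both groups. Day 1 held Mdr1a-/- replicate 4 alone, so a fit with scan day as a block also takes that array out of the comparison. The single probe of Abcb1a had a log2 fold change, Mdr1a-/- minus labelled FVB/N, of -0.40 ± 0.19 (SE, 4 against 4, limma adjusted p = 0.362). The direction of this and all later values was taken from the dyes in the labels; the deposited description gives the array ratio the opposite direction. Whether the probe lies in the disrupted part of the gene was not analysed here. In the authors' deposited table the same probe had a log2 fold change of -1.62 (authors' adjusted p = 9.75e-05). On the arrays, this probe was above background on 3 of 4 Mdr1a-/- and 4 of 4 control arrays. The labels' protocol lists slides for each group, and 3 of the 4 Mdr1a-/- arrays but 0 of the 4 arrays labelled FVB/N came from a listed slide, so the control group is called "labelled FVB/N" throughout.

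Most of the pathway did not pass the test. Cd44, an adhesion receptor and Wnt target, rose about 3-fold in the Mdr1a-/- mice on 2 of its 3 probes, while Tcf7l2, the main TCF factor of the gut epithelium, and Sfrp2, a secreted Wnt antagonist, fell about 2-fold. No ligand, no Frizzled receptor and no part of the beta-catenin destruction complex passed, and the stem cell genes Lgr5 and Ascl2 did not either. Of the genes read under another name, the R-spondin receptor Lgr4 fell on 2 of its 4 probes.

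Counted over probes, 2 of 82 rose, 3 fell and 77 were not called at a limma adjusted p under 0.05, a share of 6.1%. Over all 41174 probes the share called was 2.98%, with 1.53% higher and 1.45% lower. The 5 called probes belonged to 3 of the 51 genes. Over all probes, 985 of 19439 genes had a called probe. At an unadjusted p under 0.05, 10 of the 82 probes were higher and 4 lower, beside 3242 higher and 2894 lower of all 41174 probes. Unadjusted counts of the lists below are to be read beside these counts over all probes. The median log2 fold change of the 82 probes was -0.01, beside 0.02 over all probes, and the median size without sign was 0.252, beside 0.197. Groups did not overlap for 4 probes that were higher and 3 that were lower in Mdr1a-/- mice, together 8.54%. Over all probes this share was 10.3%, with 5.31% higher and 4.94% lower. Among the 82 probes, 43 were above background on all 8 arrays, 9 on at most 2 and 2 on none. These are levels in whole colon tissue, in which fewer cells of a type and less RNA per cell cannot be told apart.

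**Figure D1:**
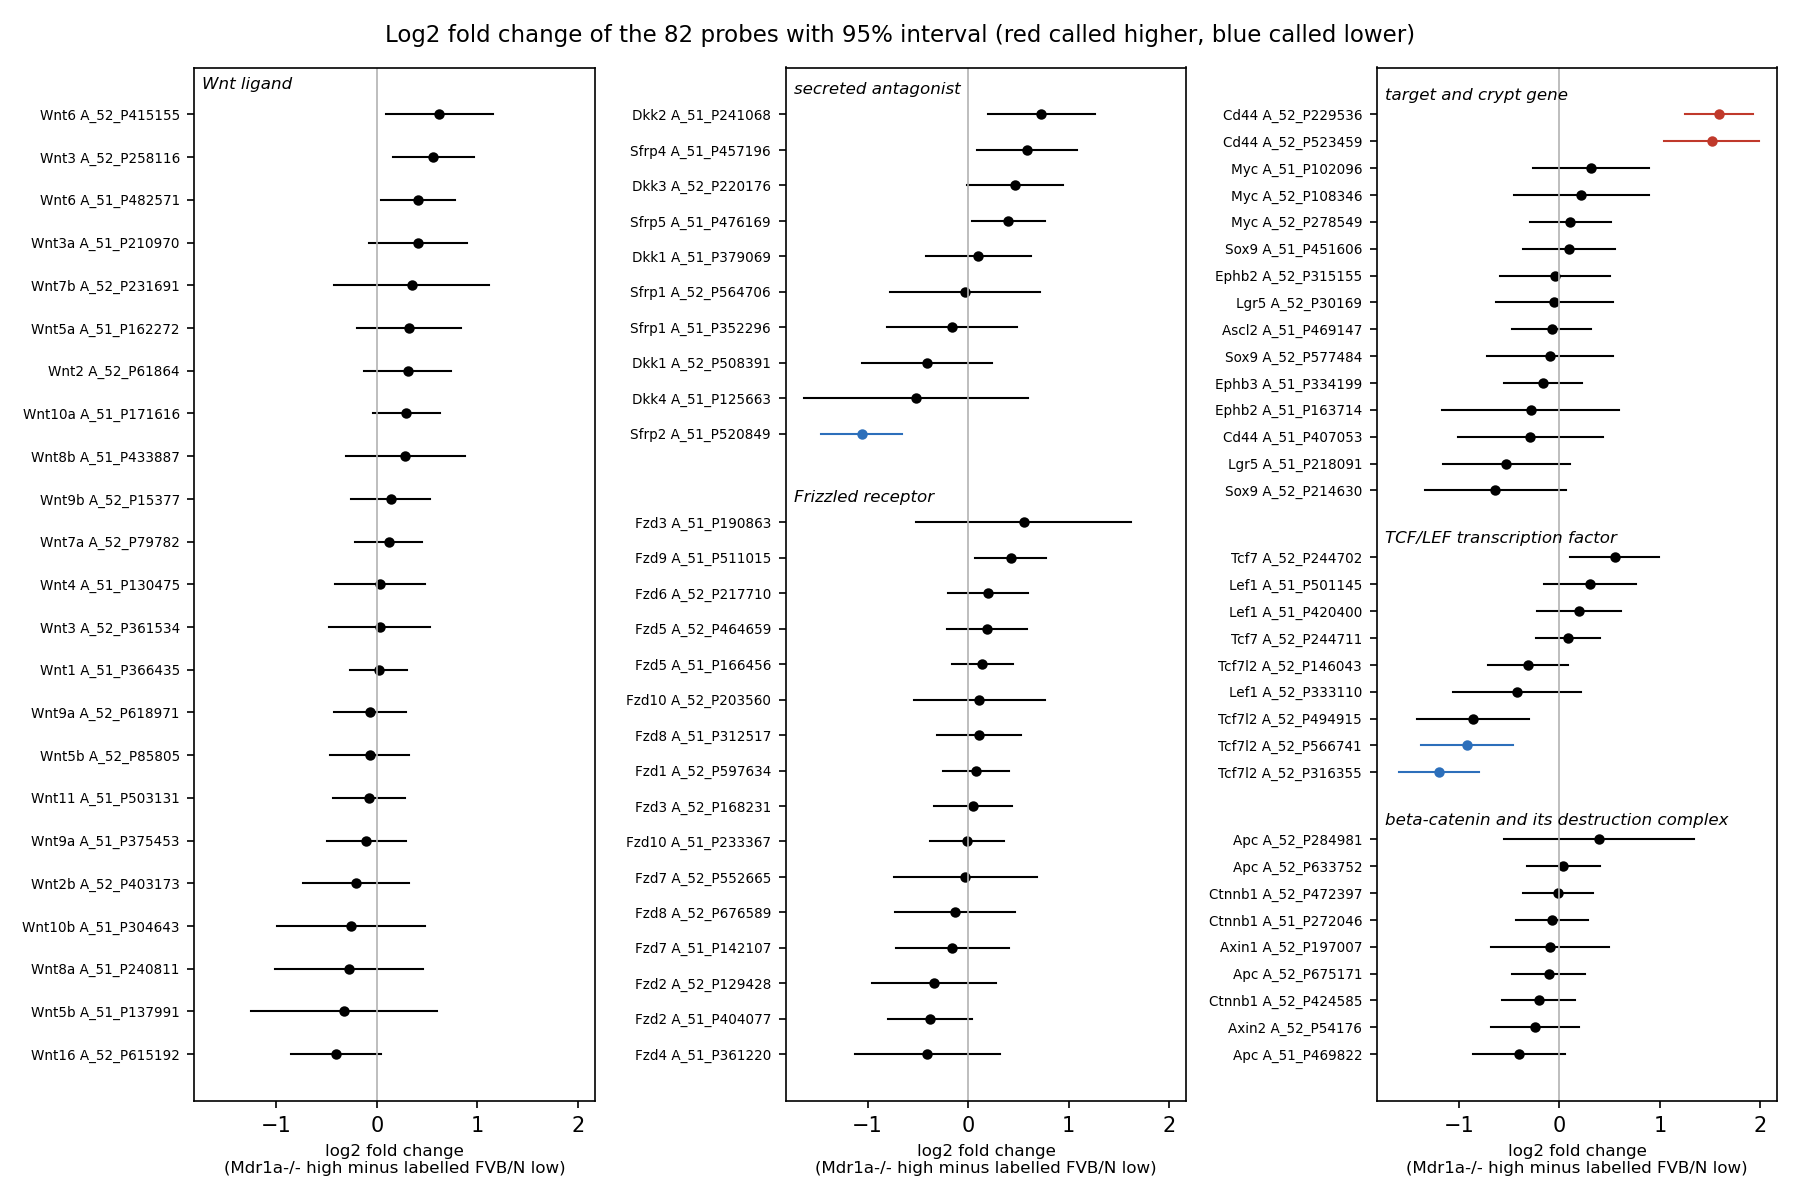
Log2 fold change (x axis, Mdr1a-/- high minus labelled FVB/N low) of each of the 82 probes with its 95% interval from the limma fit on 4 against 4 arrays, grouped by role. The 2 red Cd44 probes lie near 1.5, the blue probes of Tcf7l2 and Sfrp2 lie between -0.92 and -1.20, and the other 77 probes, in black, were not called. Fitted values are drawn for all probes, also for the 9 that were above background on at most 2 arrays.

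The ligands were measured by 23 probes for 19 genes, and 0 were called (limma), with 3 higher and 0 lower at an unadjusted p under 0.05. Their log2 fold changes ran from -0.41 for Wnt16 to 0.62 for Wnt6, with a median of 0.03. Only 8 of the 23 probes were above background on all 8 arrays, so signal limited what could be measured for the remaining 15.

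Wnt6, a ligand that signals through beta-catenin in several epithelia, had the largest fold change of the ligand probes. Its probe A_52_P415155 read -2.00, -0.996, -1.32 and -1.82 in the Mdr1a-/- mice and -1.88, -2.35, -2.35 and -2.02 on the arrays labelled FVB/N. Mdr1a-/- replicates 2, 3 and 4 stood above every control array, replicate 1 did not, and the groups overlapped. This gave a log2 fold change of 0.62 ± 0.24 (SE, limma adjusted p = 0.248). The second Wnt6 probe, A_51_P482571, had a log2 fold change of 0.41 ± 0.16 (SE, limma adjusted p = 0.272), again with overlapping groups.

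Wnt3, the ligand made by Paneth cells in the small intestine, was the ligand probe with the smallest p. Probe A_52_P258116 read 0.62, 0.67, 0.48 and 0.91 in the Mdr1a-/- mice and 0.39, 0.06, 0.27 and -0.27 on the arrays labelled FVB/N. The 4 Mdr1a-/- arrays all stood above the 4 control arrays, but the probe did not pass (log2 fold change 0.56 ± 0.18, SE, limma adjusted p = 0.154). It was above background on 3 of 4 and 2 of 4 arrays, and the second Wnt3 probe was above background on none, so the gene lay near the floor of the assay.

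Wnt5a and Wnt5b, ligands of the branch that does not run through beta-catenin, were not called. The Wnt5b probes had log2 fold changes of -0.33 and -0.07. Wnt5a was above background on 0 of 4 Mdr1a-/- and 1 of 4 control arrays, so no fold is given for it. For Wnt2b, a stromal ligand of the intestine, the log2 fold change was -0.21 ± 0.23 (SE), with a 95% interval from -0.74 to 0.32. Wnt4, made in the stroma and in the kidney, had a log2 fold change of 0.03 ± 0.20 (SE), with a 95% interval from -0.42 to 0.47. The Wnt4 probe was above background on 2 of 4 Mdr1a-/- and 4 of 4 control arrays.

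The 10 Frizzled receptor genes, Fzd1 to Fzd10, had 16 probes and 0 calls (limma), with 1 higher and 0 lower at an unadjusted p under 0.05. Fold changes on the log2 scale ran from -0.41 for Fzd4 to 0.55 for Fzd3, with a median of 0.06. Fzd9 had the smallest p of the family. Its probe read -0.73, -0.87, -0.62 and -1.01 in the Mdr1a-/- mice and -0.96, -1.43, -1.36 and -1.18 on the arrays labelled FVB/N. Only Mdr1a-/- replicate 4 fell into the range of the controls, and Fzd9 had a log2 fold change of 0.42 ± 0.16 (SE, limma adjusted p = 0.233).

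Fzd5 and Fzd7 are the receptors best known from intestinal crypts. The Fzd5 probes had log2 fold changes of 0.14 and 0.19, and those of Fzd7 had -0.16 and -0.03, with overlapping groups on each. Fzd3 varied most within the Mdr1a-/- group: probe A_51_P190863 read 0.71, 3.15, 1.91 and 2.66 in the Mdr1a-/- mice and 1.32, 1.94, 1.01 and 1.95 on the arrays labelled FVB/N. Mdr1a-/- replicates 2 and 4 were the highest and replicate 1 the lowest of the 8 arrays.

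The secreted antagonists, which bind Wnt ligands (Sfrp genes) or the Lrp co-receptors (Dkk genes other than Dkk3), had 10 probes for 8 genes, and 0 rose and 1 fell. The probe that fell was that of Sfrp2, an antagonist made mainly by stromal cells. At an unadjusted p under 0.05, 3 probes were higher and 1 was lower. It read -1.21, -1.24, -0.63 and -1.09 in the Mdr1a-/- mice and 0.11, -0.27, 0.09 and 0.14 on the arrays labelled FVB/N. All 4 Mdr1a-/- arrays lay below all 4 control arrays, and the nearest were Mdr1a-/- replicate 3 and control replicate 2. Sfrp2 was 2.08-fold lower, with a log2 fold change of -1.06 ± 0.18 (SE, 95% interval -1.46 to -0.65, limma adjusted p = 0.0152).

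Within scan days 2 and 3 the Sfrp2 log2 fold change was -1.32 and -0.56, and a fit with scan day as a block gave -1.02 (limma adjusted p = 0.107). Leaving out Mdr1a-/- replicate 1 or 4, or control replicate 1, 3 or 4, ended the call (adjusted p from 0.0503 to 0.058, log2 fold changes from -1.04 to -1.002). Fibroblast markers, measured for 8 of 8 listed genes, averaged from -0.53 to 0.18 in the Mdr1a-/- mice and from -1.04 to -0.47 on the control arrays, with Thy1 the only one called, and higher. Smooth muscle markers averaged from -0.59 to 0.16 and from -0.09 to 0.43, with 0 of 6 called. The part of either cell type in the Sfrp2 result was not tested.

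None of the other Sfrp genes was called, and differences between these genes were not tested. Sfrp4 had a log2 fold change of 0.59 ± 0.22 (SE, limma adjusted p = 0.237) and Sfrp5 one of 0.40 ± 0.16 (SE, limma adjusted p = 0.282), both with groups that overlapped. The Sfrp4 probe read -2.08, -2.02, -1.24 and -1.58 in the Mdr1a-/- mice and -2.06, -2.39, -2.65 and -2.17 on the control arrays, and Mdr1a-/- replicate 1 was the array that fell among the controls. The Sfrp5 probe read -0.44, -0.26, -0.57 and -0.83 against -0.69, -1.01, -1.03 and -0.96, with Mdr1a-/- replicate 4 below control replicate 1. For Sfrp1, the log2 fold changes of its probes were -0.16 and -0.03.

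Among the Dkk genes, Dkk3 had a log2 fold change of 0.47 ± 0.21 (SE, limma adjusted p = 0.352), from 0.74, 0.85, 1.56 and 1.04 in the Mdr1a-/- mice and 0.52, 0.30, 0.93 and 0.59 on the control arrays. Control replicate 3 stood above Mdr1a-/- replicates 1 and 2. Dkk2 was not well above background on any Mdr1a-/- array and on only 1 of 4 control arrays, so no fold is given for it, although its fitted p was the second smallest of the uncalled antagonist, ligand and receptor probes (limma adjusted p = 0.163). Dkk1, a target and inhibitor of the pathway, had log2 fold changes of -0.41 and 0.10 on its probes. Both lay near the floor: the first was above background on 1 of 4 Mdr1a-/- and 3 of 4 control arrays. The second was above background on 2 of 4 arrays of each group. Dkk4 spread from -1.06 to 1.56 within the Mdr1a-/- group and was above background on 1 of 4 arrays of each group.

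R-spondins, their receptor Lgr4 and the ligase Rnf43 were on the arrays under older names, and were matched through RefSeq synonyms and accessions: Lgr4 as Gpr48, Rspo1 under its MGI number, Rspo2 as 2610028F08Rik, Rspo3 as Thsd2 and Rnf43 as 4732452J19Rik. A further Fzd3 probe, named D930050A07Rik, was found the same way. These 12 probes lay outside the 82, and 0 of them rose and 2 fell, both of Lgr4. The share called was 16.7%, beside 2.98% of all probes, and it came from this gene alone. Olfm4 and Znrf3 had no probe under any name that matched.

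Lgr4 is the R-spondin receptor found on most cells of the crypt. Probe A_51_P442746 read -0.09, -0.19, -0.14 and -0.25 in the Mdr1a-/- mice and 0.84, 0.51, 1.00 and 0.70 on the arrays labelled FVB/N. Probe A_52_P276727 read -1.49, -0.55, -0.68 and -1.07 in the Mdr1a-/- mice and 0.51, 0.19, 0.79 and 0.53 on the control arrays. On both probes every Mdr1a-/- array lay below every control array. The log2 fold changes were -0.93 ± 0.15 and -1.45 ± 0.23 (SE, limma adjusted p = 0.0108 for each), which are 1.91-fold and 2.74-fold lower.

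Leaving out any 1 array kept both Lgr4 calls, with adjusted p up to 0.0458 and 0.0438. Within scan days 2 and 3 the first probe had log2 fold changes of -1.06 and -0.75 and the second -1.67 and -1.04, and with scan day as a block the adjusted p were 0.0691 and 0.0841. The other Lgr4 probes went the other way without passing. Probe A_52_P278566 had a log2 fold change of 0.95 ± 0.61 (SE), with control replicate 3 at -0.34 and the other 7 arrays from 1.40 to 3.26. Probe A_52_P633844 had one of 0.31 ± 0.36 (SE) and was above background on 2 of 4 arrays of each group. The 4 probes of Lgr4 thus disagreed. Both called probes are tied to the same sequence record, and the other probes each to a different record. Which transcripts each probe reads was not analysed here.

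Rspo3, the main R-spondin of the intestinal stroma, did not pass. Its brightest probe read -0.02, -0.33, -0.03 and -0.19 in the Mdr1a-/- mice and -0.16, -0.14, 0.08 and -0.34 on the control arrays, and the ranges overlapped almost fully. The 95% interval of its log2 fold change was -0.33 to 0.33, and its sign turned with the settings. Rspo1 had a log2 fold change of 0.59 ± 0.41 (SE, limma adjusted p = 0.579), with control replicate 2 at 1.68 and the other 3 control arrays under 0. Rnf43, a ligase that removes Frizzled receptors, had log2 fold changes of 0.37 ± 0.14 (SE, limma adjusted p = 0.23) and 0.03 ± 0.17 (SE) on its probes.

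Beta-catenin (Ctnnb1) and the scaffold of its destruction complex (Apc, Axin1, Axin2) had 9 probes for 4 genes and 0 calls (limma), with 0 probes at an unadjusted p under 0.05 in either direction. The log2 fold changes ran from -0.40 to 0.39, both on probes of Apc. The brightest Ctnnb1 probe read -0.53, -0.78, -0.83 and -0.69 in the Mdr1a-/- mice and -0.24, -0.83, -0.41 and -0.51 on the control arrays. Control replicate 2 stood with the Mdr1a-/- arrays. For Ctnnb1 the log2 fold change was -0.21 ± 0.16 (SE), with a 95% interval from -0.57 to 0.16.

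Axin2, which the pathway itself switches on and which is widely used as its readout, did not pass. Its probe read 0.00, 0.00, -0.42 and -0.08 in the Mdr1a-/- mice and 0.18, 0.01, 0.55 and -0.26 on the control arrays. The groups overlapped, and control replicate 3 was the highest array. Axin2 had a log2 fold change of -0.24 ± 0.20 (SE, 95% interval -0.68 to 0.20, limma adjusted p = 0.645). The brightest Apc probe, A_52_P675171, read -0.08, 0.55, 0.22 and 0.05 in the Mdr1a-/- mice and 0.43, 0.25, 0.25 and 0.23 on the control arrays, with the controls inside the Mdr1a-/- range. Its log2 fold change was -0.11 ± 0.16 (SE), with a 95% interval from -0.47 to 0.26.

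The TCF/LEF factors, which bind DNA and carry beta-catenin to its targets, had 9 probes for 3 genes, of which 0 rose and 2 fell, both of Tcf7l2. Probe A_52_P316355 read -0.18, 0.02, 0.09 and 0.14 in the Mdr1a-/- mice and 1.04, 1.27, 1.61 and 0.94 on the arrays labelled FVB/N. Probe A_52_P566741, the brightest of the gene, read 0.09, 0.74, 0.70 and 0.35 against 1.13, 1.67, 1.60 and 1.17. On both probes the 4 Mdr1a-/- arrays lay below the 4 control arrays, by a wider gap on the first.

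For the first Tcf7l2 probe the log2 fold change was -1.20 ± 0.18 (SE, 95% interval -1.59 to -0.80, limma adjusted p = 0.00811), or 2.29-fold lower, and for the second it was -0.92 ± 0.20 (SE, 95% interval -1.38 to -0.47, limma adjusted p = 0.0453), or 1.89-fold lower. Within scan days 2 and 3 these were -1.41 and -1.01 for the first and -0.95 and -0.72 for the second, with adjusted p of 0.0613 and 0.217 with scan day as a block. The first probe kept its call whichever array was left out. The second lost it when any array other than Mdr1a-/- replicate 3 was left out, with adjusted p from 0.0511 to 0.139 and log2 fold changes from -1.01 to -0.79.

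Tcf7l2 probe A_52_P494915 read 0.61, 0.41, -0.06 and 0.03 in the Mdr1a-/- mice and 0.56, 1.54, 1.38 and 0.94 on the control arrays. Control replicate 1 stood below Mdr1a-/- replicate 1, and the log2 fold change of -0.86 ± 0.25 (SE, limma adjusted p = 0.111) was not called. The fourth probe had a log2 fold change of -0.31 ± 0.18 (SE, limma adjusted p = 0.481). All 4 probes of the gene therefore had a negative value, and 2 of them passed.

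Tcf7, the TCF factor of T cells, and Lef1 were not called. The Tcf7 probe A_52_P244702 read 0.94, 0.66, 0.77 and 0.28 in the Mdr1a-/- mice and 0.21, -0.31, 0.31 and 0.22 on the control arrays. Mdr1a-/- replicate 4 stood just below control replicate 3, and this probe's log2 fold change came to 0.55 ± 0.20 (SE, limma adjusted p = 0.21). Tcf7 probe A_52_P244711 had a log2 fold change of 0.08 ± 0.14 (SE, limma adjusted p = 0.852), with overlapping groups. T cell markers averaged from 0.36 to 0.88 in the Mdr1a-/- mice and from -0.06 to 0.22 on the control arrays. Of 8 T cell genes, Cd3d and Cd6 were called higher, and the part of T cells in the Tcf7 values was not tested. Of the Lef1 probes, one was above background on no array, and the others had log2 fold changes of 0.20 and 0.30.

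Target and crypt genes had 15 probes for 7 genes, of which 2 rose and 0 fell, and both of these read Cd44. This receptor for hyaluronan is carried by crypt cells and also by leukocytes. Probe A_52_P229536 read 1.93, 2.17, 1.81 and 2.23 in the Mdr1a-/- mice and 0.45, 0.26, 0.55 and 0.54 on the arrays labelled FVB/N. Probe A_52_P523459 read 1.90, 1.19, 1.05 and 1.85 against -0.04, -0.01, 0.04 and -0.08. All 4 Mdr1a-/- arrays stood above all 4 control arrays on both probes.

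The log2 fold changes of these Cd44 probes were 1.58 ± 0.15 (SE, 95% interval 1.25 to 1.92, limma adjusted p = 0.00167) and 1.52 ± 0.21 (SE, 95% interval 1.05 to 1.99, limma adjusted p = 0.00655), which are 3.0-fold and 2.86-fold higher. Within scan days 2 and 3 they were 1.55 and 1.41 for the first probe and 1.54 and 1.10 for the second. With scan day as a block, which left 0.602% of all probes called, the first probe stayed called (adjusted p = 0.0174) and the second did not (adjusted p = 0.0521). Both stayed called whichever array was left out.

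The third Cd44 probe, A_51_P407053, read 0.17, 1.11, 0.12 and -0.08 in the Mdr1a-/- mice and 0.29, 1.29, 0.10 and 0.79 on the control arrays. Replicate 2 was the highest array of each group, the groups overlapped, and this probe's log2 fold change came to -0.29 ± 0.32 (SE, limma adjusted p = 0.757). The 3 probes of Cd44 thus disagreed, and the file ties them to different accessions. Only the third probe, which did not rise, is tied to a RefSeq accession.

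Leukocyte markers are given beside Cd44. Myeloid markers, measured for 7 of 7 listed genes, averaged from 1.48 to 1.91 in the Mdr1a-/- mice and from -0.03 to 0.64 on the control arrays, with Cybb and Ptprc called higher. Each marker gene was read on its brightest probe. The further Ptprc probes had positive values that were not called (limma adjusted p = 0.125, 0.19 and 0.471). B cell markers averaged from 0.59 to 1.58 and from 0.15 to 0.94, with 0 of 4 called, and these groups overlapped. Of the T cell genes, 2 of 8 were called, and the brightest Cd3e probe had a log2 fold change of -0.03 ± 0.14 (SE). Proliferation markers averaged from -0.50 to 0.42 and from -0.88 to -0.69, with Aurkb, Mki67 and Top2a of 8 genes called higher. How much of the Cd44 signal came from leukocytes or from dividing cells was not tested.

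**Figure D2:**
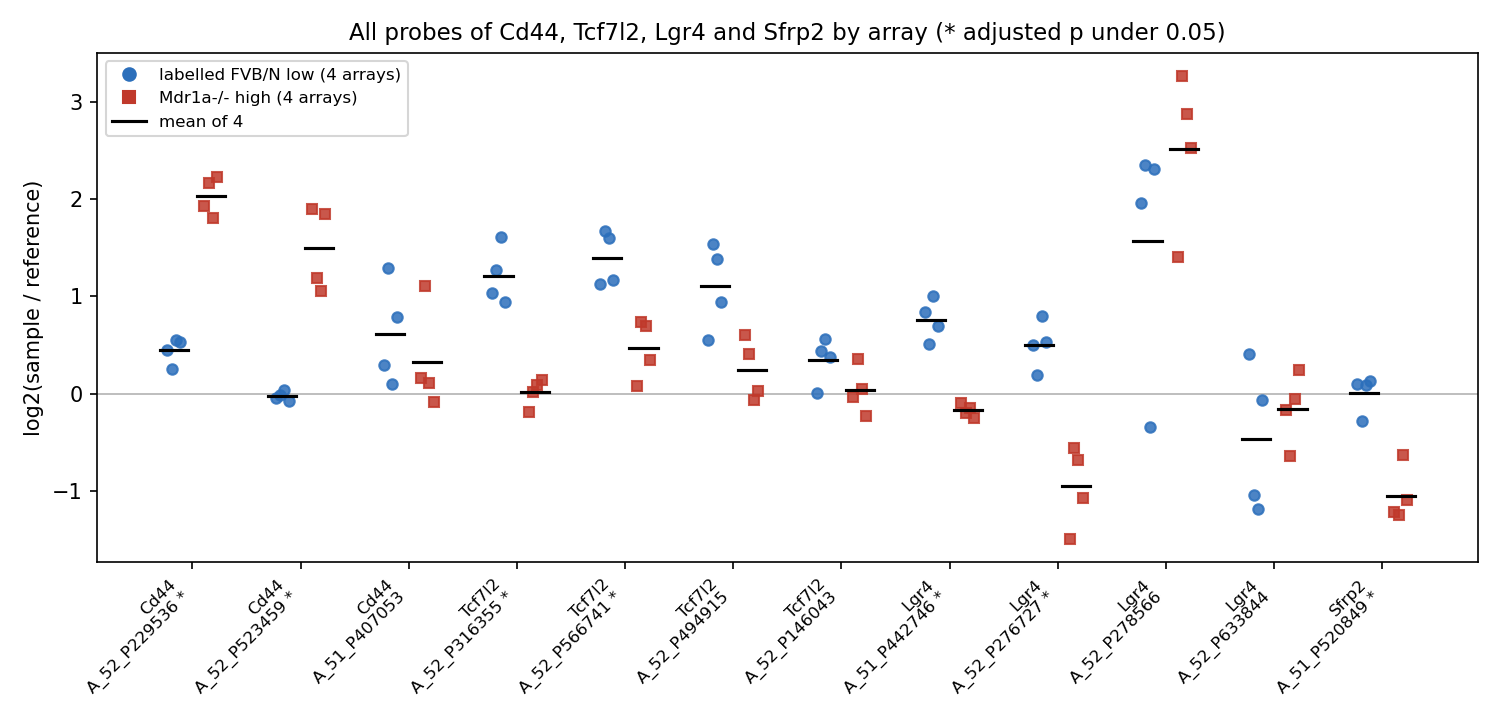
Log2(sample / reference) on each array (y axis; blue circles, 4 arrays labelled FVB/N low; red squares, 4 Mdr1a-/- high arrays; bars, group means) for all probes of Cd44, Tcf7l2, Lgr4 and Sfrp2, with an asterisk on each called probe. The groups are apart on the 7 called probes and overlap on the other probes of Cd44, Tcf7l2 and Lgr4, with the widest spread on Lgr4 probe A_52_P278566.

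The stem cell genes of the crypt base did not pass. Lgr5, the R-spondin receptor that marks crypt stem cells, read -0.20, 0.13, 0.00 and -0.23 in the Mdr1a-/- mice and -0.13, 0.00, 1.14 and 0.80 on the control arrays with probe A_51_P218091. Control replicates 3 and 4 were the high arrays, and control replicates 1 and 2 lay among the Mdr1a-/- arrays. Lgr5 thus had a log2 fold change of -0.53 ± 0.28 (SE, 95% interval -1.16 to 0.10, limma adjusted p = 0.438). The second Lgr5 probe was above background on 1 of 4 Mdr1a-/- and 0 of 4 control arrays.

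Ascl2, the transcription factor that keeps the stem cell state, read -0.29, 0.08, -0.20 and -0.23 in the Mdr1a-/- mice and -0.20, 0.03, 0.25 and -0.41 on the control arrays. The control arrays spanned the Mdr1a-/- values. Its log2 fold change was -0.08 ± 0.18 (SE, 95% interval -0.47 to 0.32, limma adjusted p = 0.894). Lgr5 and Ascl2 were above background on all 8 arrays with these probes.

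Sox9, a factor of stem and progenitor cells, had 3 probes with log2 fold changes of -0.64, -0.09 and 0.10. The brightest, A_52_P214630, read 0.09, 1.56, 1.51 and 0.95 in the Mdr1a-/- mice and 1.41, 1.55, 1.74 and 1.97 on the control arrays. Mdr1a-/- replicate 1 was far below the other 7 arrays, and replicates 2 and 3 lay within the control range. The log2 fold change of this probe was -0.64 ± 0.31 (SE, 95% interval -1.34 to 0.06, limma adjusted p = 0.391).

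Myc, which drives growth of crypt cells, had log2 fold changes of 0.32, 0.22 and 0.11 on its 3 probes. The brightest read 0.90, 1.07, -0.01 and 1.10 in the Mdr1a-/- mice and 0.50, 0.74, 0.32 and 0.23 on the control arrays. Mdr1a-/- replicates 1, 2 and 4 were above every control array and replicate 3 was below them all. The difference was 0.58 within scan day 2 and -0.50 within day 3, where replicate 3 was the only Mdr1a-/- array.

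Ephb2 and Ephb3 are receptors that hold cells in their place along the crypt. The bright Ephb2 probe read 0.66, 0.14, 0.52 and 0.66 in the Mdr1a-/- mice and 0.42, 0.01, 1.16 and 0.57 on the control arrays, so that the controls spanned the Mdr1a-/- values. Its log2 fold change was -0.04 ± 0.24 (SE, 95% interval -0.59 to 0.50), and that of Ephb3 was -0.16 ± 0.17 (SE, 95% interval -0.55 to 0.23).

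**Figure D3:**
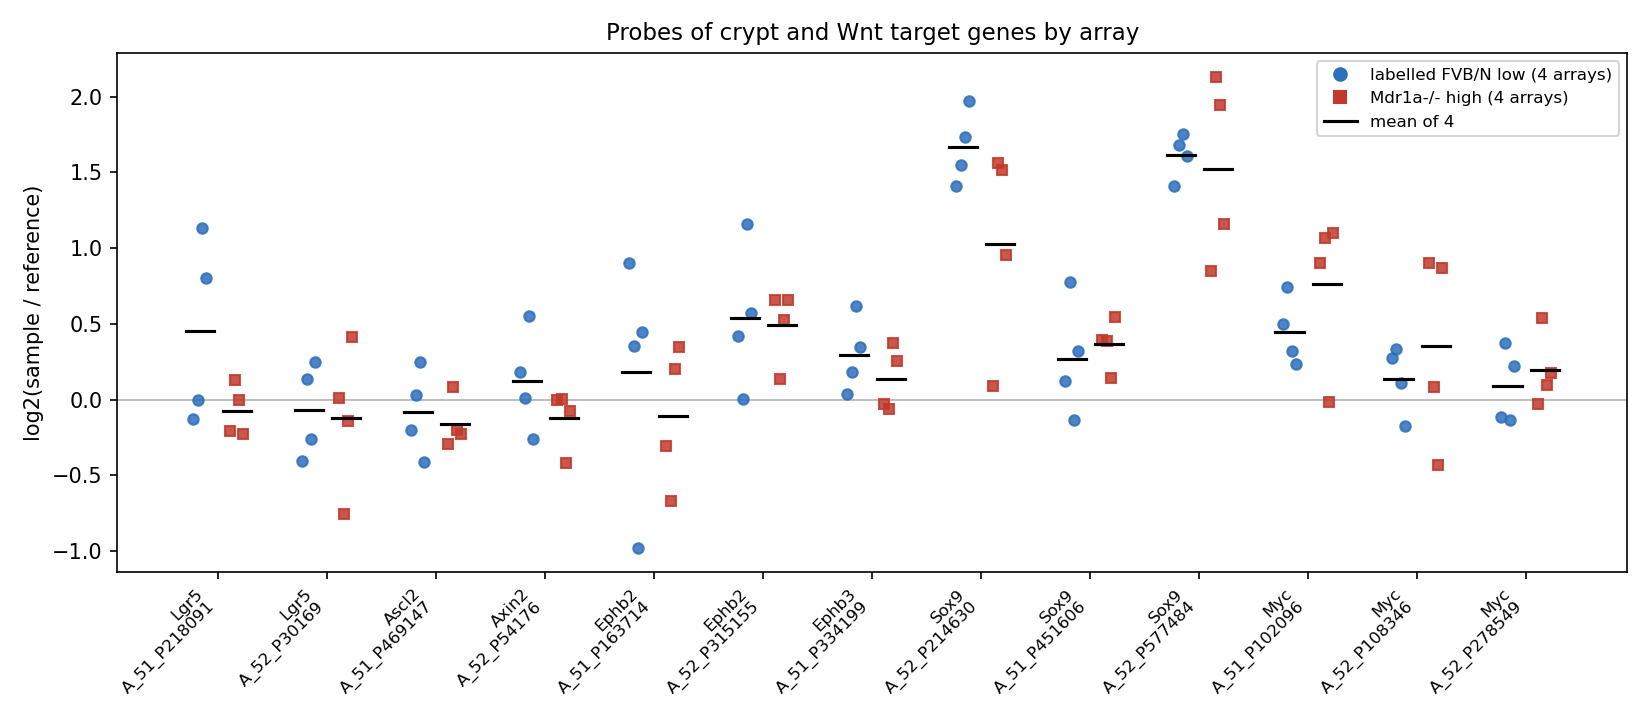
Log2(sample / reference) on each array (y axis; blue circles, 4 arrays labelled FVB/N low; red squares, 4 Mdr1a-/- high arrays; bars, group means) for the probes of Lgr5, Ascl2, Axin2, Ephb2, Ephb3, Sox9 and Myc. The groups overlap on each of these probes, with single low Mdr1a-/- arrays for Sox9 (0.09) and Myc (-0.01) and 2 high control arrays for Lgr5 (1.14 and 0.80).

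The promoters of the genes named by the rule that had a called probe, Lgr4 included, are shown, and the core of the TCF/LEF motif was looked for in them. Each stretch covers the 250 bases before the start, 5′ to 3′ on the strand of the gene, from RefSeq on GRCm38.p6, and capitals mark the letters CTTTG or CAAAG, which are the same core on either strand.
Cd44 chr2:102901666-102901915, minus strand: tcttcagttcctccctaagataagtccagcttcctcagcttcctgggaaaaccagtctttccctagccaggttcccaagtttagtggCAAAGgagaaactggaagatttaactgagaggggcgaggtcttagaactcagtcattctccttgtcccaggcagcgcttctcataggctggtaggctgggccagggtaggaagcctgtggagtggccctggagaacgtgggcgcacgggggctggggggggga
Tcf7l2 chr19:55741560-55741809, plus strand: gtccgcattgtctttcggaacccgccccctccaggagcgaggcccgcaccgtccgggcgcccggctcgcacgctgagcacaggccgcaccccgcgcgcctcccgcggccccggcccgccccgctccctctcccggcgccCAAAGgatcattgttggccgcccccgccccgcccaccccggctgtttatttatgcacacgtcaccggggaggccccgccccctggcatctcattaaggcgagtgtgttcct
Sfrp2 chr3:83766071-83766320, plus strand: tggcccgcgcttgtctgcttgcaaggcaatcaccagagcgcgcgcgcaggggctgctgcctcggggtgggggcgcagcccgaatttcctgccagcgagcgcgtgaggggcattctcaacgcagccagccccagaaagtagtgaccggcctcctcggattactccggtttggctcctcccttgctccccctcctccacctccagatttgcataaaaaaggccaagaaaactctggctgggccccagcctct
Lgr4 chr2:109917397-109917646, plus strand: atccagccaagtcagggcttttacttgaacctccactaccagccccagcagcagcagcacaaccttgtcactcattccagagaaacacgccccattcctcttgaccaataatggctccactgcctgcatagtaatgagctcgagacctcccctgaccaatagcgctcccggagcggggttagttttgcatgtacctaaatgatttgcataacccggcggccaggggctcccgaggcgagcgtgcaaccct
Cd44 held 1 match, 163 bases before its start, and Tcf7l2 held 1 match, 111 bases before the first of its 2 listed starts. Sfrp2 and Lgr4 held none in this window. The same letters were in 48.6% of 32851 promoters of this length, so a match in 2 of 4 is no more than a description.

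Beyond the named genes, 64 of 65 listed genes of the pathway and of intestinal stem cells were measured, by 116 probes. Of these, 1 probe rose, 5 fell and 110 were not called, a share of 5.17%, beside 2.98% of all probes. The share was 17.4% of 23 probes for stem and progenitor genes, 6.67% of 15 for secretion and co-receptors, 5.56% of 18 for nuclear factors, and 0 of 35 for cytoplasmic signalling, 0 of 15 for planar polarity and 0 of 10 for secreted modulators (limma). At an unadjusted p under 0.05 these last lists had 1 probe higher and 2 lower, 0 and 0, and 1 and 0. The stem and progenitor list also holds the ephrins Efnb1 and Efnb2, ligands of the Ephb receptors rather than stem cell genes. Each of these had a called probe, so the share of that list is not a share of stem cell genes alone.

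Prom1, a membrane protein (CD133) of stem and progenitor cells, was the one that rose. Its probe A_51_P414072 read 1.58, -0.02, 1.32 and 1.12 in the Mdr1a-/- mice and -0.85, -1.60, -1.56 and -1.13 on the arrays labelled FVB/N. The groups did not overlap, although Mdr1a-/- replicate 2 stood well below the other Mdr1a-/- arrays. Prom1 had a log2 fold change of 2.29 ± 0.34 (SE, limma adjusted p = 0.0082), or 4.89-fold higher, with 1.99 and 2.69 within scan days 2 and 3 and an adjusted p of 0.0676 with scan day as a block. The second Prom1 probe had a log2 fold change of 1.26 ± 0.34 (SE, limma adjusted p = 0.0931), with control replicate 2 above Mdr1a-/- replicate 2.

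Efnb1 and Efnb2 encode ephrins, the ligands of the Ephb receptors, and both had a probe that fell. Efnb2 probe A_52_P340073 read -0.97, -0.32, -0.67 and -0.73 in the Mdr1a-/- mice and 0.37, 0.68, 0.87 and 0.48 on the control arrays, a log2 fold change of -1.27 ± 0.18 (SE, limma adjusted p = 0.00718), or 2.41-fold lower. Efnb1 read -0.74, -0.05, -0.37 and -0.43 against 0.35, 0.65, 1.13 and 0.62, a log2 fold change of -1.08 ± 0.21 (SE, limma adjusted p = 0.0256). The groups were apart on both probes, and no control array was under 0. The second Efnb2 probe did not follow, at 0.07 ± 0.31 (SE, limma adjusted p = 0.949).

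Tcf7l1, a further TCF factor and mostly a repressor, read -0.22, 1.22, 1.13 and 0.67 in the Mdr1a-/- mice and 2.30, 1.90, 2.79 and 2.15 on the control arrays, a log2 fold change of -1.58 ± 0.32 (SE, limma adjusted p = 0.0342). Nr5a2, a nuclear receptor that works with beta-catenin in crypt cells, had -1.34 ± 0.27 (SE, limma adjusted p = 0.0311), and one probe of the co-receptor Lrp6, under its older name C030016K15Rik, had -1.23 ± 0.27 (SE, limma adjusted p = 0.041). On these 3 probes the groups did not overlap. The second Lrp6 probe had a log2 fold change of -0.28 ± 0.18 (SE, limma adjusted p = 0.528) and overlapping groups, so the Lrp6 probes disagreed.

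With scan day as a block none of these 6 probes was called (limma adjusted p from 0.0673 to 0.162). The Prom1 call and the Efnb2 call held whichever array was left out. Without Mdr1a-/- replicate 4 the adjusted p was 0.084 for Efnb1, 0.103 for Nr5a2, 0.101 for Tcf7l1 and 0.112 for Lrp6. Other single arrays also ended these 4 calls: Mdr1a-/- replicate 1 for Efnb1, Nr5a2 and Lrp6, Mdr1a-/- replicate 3 for Nr5a2, control replicate 1 for Tcf7l1 and Lrp6, and control replicates 2, 3 and 4 for each, with adjusted p from 0.0546 to 0.104. None of the fold changes turned in sign.

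Genes that were not called include Lrp5 (log2 fold change 0.21 ± 0.22, SE) and Gsk3b, the kinase of the destruction complex (-0.32 ± 0.24 and -0.10 ± 0.26, SE). Ccnd1, a cell cycle target of the pathway, had 0.42 ± 0.29 (SE), and Lrig1, a stem cell marker that restrains growth factor receptors, had -0.45 ± 0.23 (SE). Msi1, an RNA-binding protein of stem cells, had -0.70 ± 0.17 (SE, limma adjusted p = 0.0637) with groups apart on probe A_51_P296866. Its probe A_52_P566963 went the other way, at 0.62 ± 0.57 (SE, limma adjusted p = 0.698), with overlapping groups, so the Msi1 probes disagreed. Frzb, a secreted Wnt antagonist, had 0.70 ± 0.22 (SE, limma adjusted p = 0.142), also with groups apart.

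**Figure D4:**
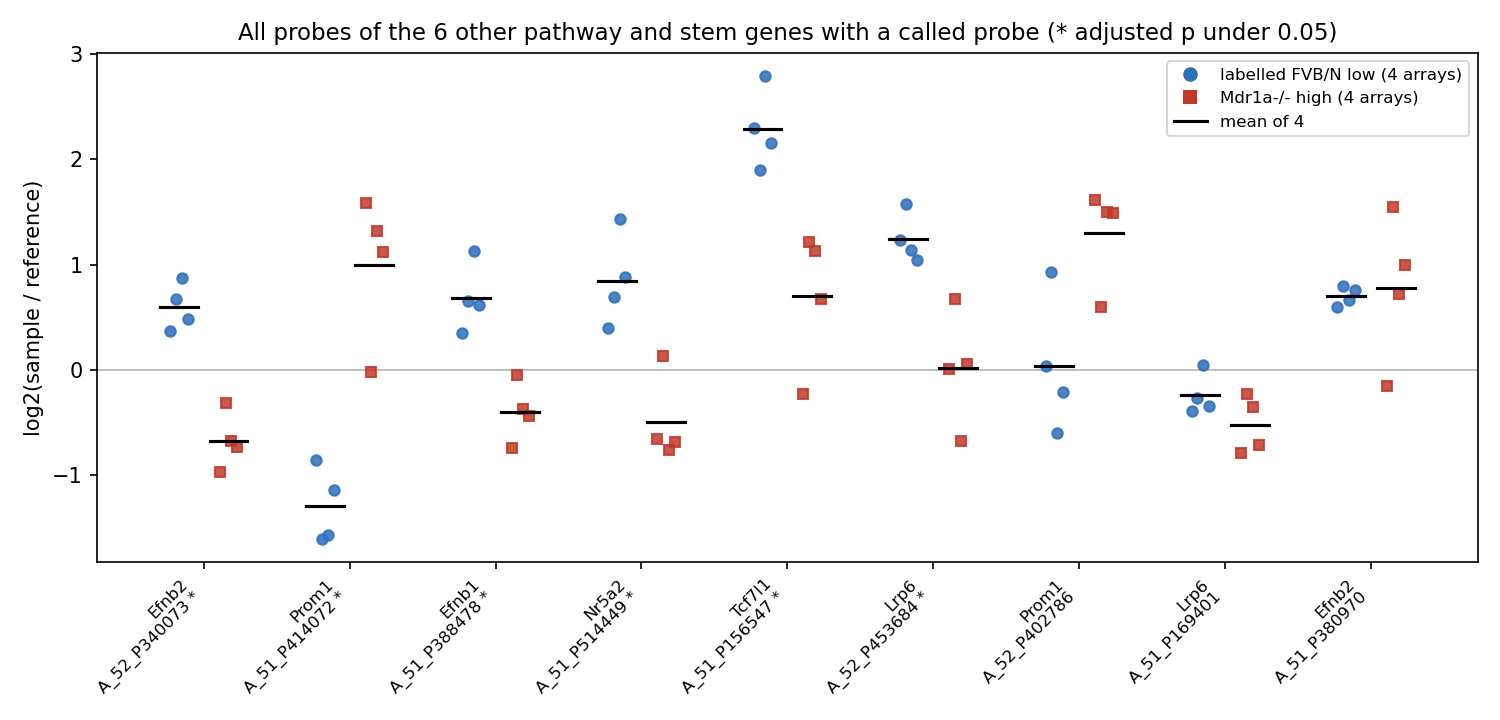
Log2(sample / reference) on each array (y axis; blue circles, 4 arrays labelled FVB/N low; red squares, 4 Mdr1a-/- high arrays; bars, group means) for all probes of the 6 further genes with a called probe. The groups are apart on the 6 probes marked with an asterisk and overlap on the second probes of Prom1, Lrp6 and Efnb2.

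Lgr4, Tcf7l2, Nr5a2 and Efnb1 are known from intestinal epithelium, so the epithelial markers are given beside them. Of 10 listed genes, 10 were measured and above background on all 8 arrays, and 0 were called. Their mean ran from 0.18 to 0.35 in the Mdr1a-/- mice and from 0.20 to 0.71 on the arrays labelled FVB/N, and the groups overlapped. Epcam, the pan-epithelial adhesion molecule, had a log2 fold change of -0.46 ± 0.18 (SE, limma adjusted p = 0.247) with groups apart. Enteric neuron and glia markers, in contrast, averaged from -0.14 to 0.22 and from 0.36 to 0.83, with S100b of 6 genes called lower.

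Tissue from outside the mucosa varied between single arrays. Adipocyte markers averaged from -0.62 to -0.01 in the Mdr1a-/- mice and from -0.998 to 1.90 on the control arrays, and pancreatic acinar markers from -1.38 to 0.87 and from -0.12 to 1.71, with 0 called in either list. The part of any of these lists in the values of the pathway genes was not tested.

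**Figure D5:**
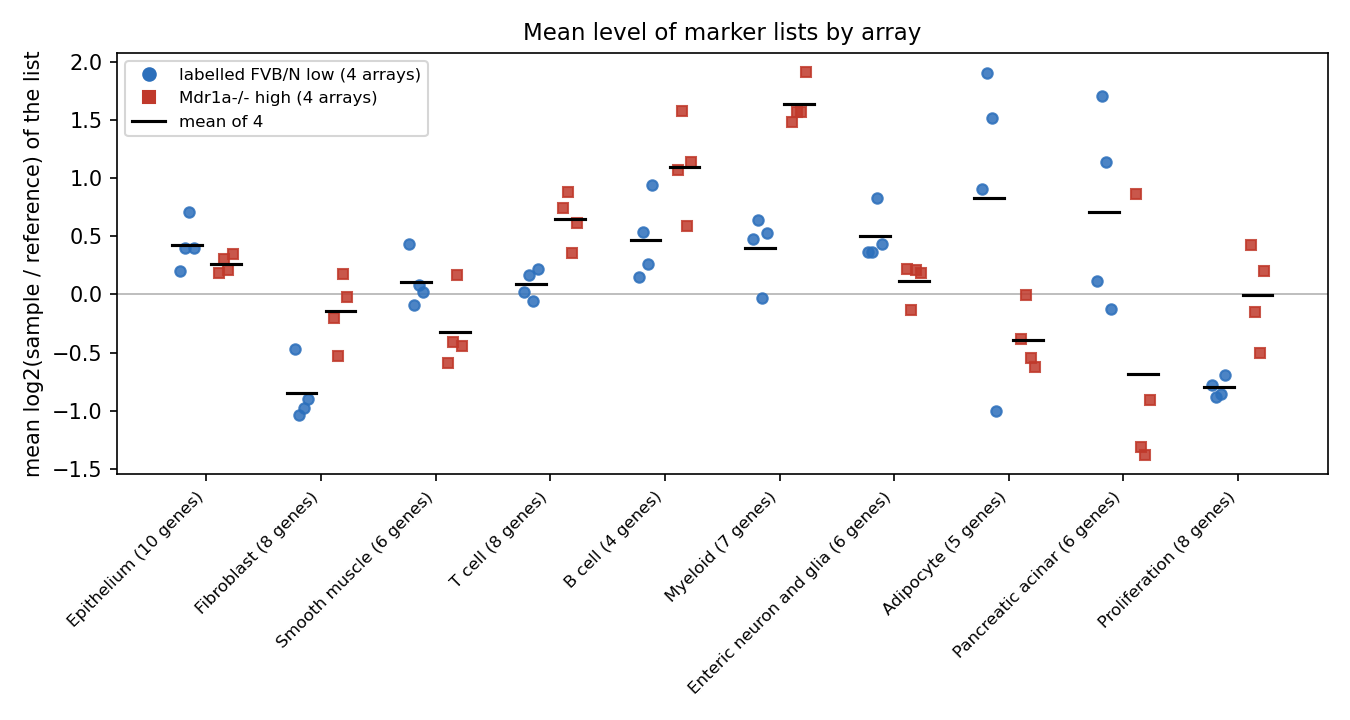
Mean log2(sample / reference) of each marker list on each array (y axis; blue circles, 4 arrays labelled FVB/N low; red squares, 4 Mdr1a-/- high arrays; bars, group means). Myeloid, T cell and proliferation lists lie higher in all 4 Mdr1a-/- arrays, the neuron and glia list lies lower in all 4, and the epithelial list overlaps between groups.

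The authors' deposited table holds all 82 probes and gives a fold change for 72 of them. At an adjusted p under 0.05 that table calls 4 of these probes higher, the same Cd44 probes with log2 fold changes of 1.94 and 1.35, Wnt6 probe A_52_P415155 with 0.56, and Wnt10a with 0.39. It calls 3 lower, which are Tcf7l2 probes A_52_P316355, A_52_P566741 and A_52_P494915 with -0.48, -0.60 and -0.52. Sfrp2 has -0.58 with an adjusted p of 0.0501 in the authors' deposited table. Of all 35449 rows with a fold change in the authors' deposited table, 6.31% are called higher and 4.39% lower. For Lgr4 the authors' deposited table gives -1.28 for probe A_52_P276727 and -0.34 for probe A_51_P442746, and it calls the first and not the second.
Of the called probes of the wider list, the authors' deposited table calls Efnb2 (-1.02), Tcf7l1 (-1.04) and Lrp6 probe A_52_P453684 (-0.63) lower as well. The authors' deposited table does not call Prom1 probe A_51_P414072 (0.71, adjusted p = 0.241), Nr5a2 (-0.63, adjusted p = 0.122) or Efnb1 (-0.51, adjusted p = 0.0504). Among wider-list probes not called here, it calls Ccnd1 (0.68), Sp5 (0.52), Lrp5 (0.49), Frzb (0.43) and Wif1 (0.27) higher. It also calls a probe each of Tle1 (0.51), Csnk1a1 (0.43) and Tnks (0.41) higher. Lower in it are Tspan8 (-0.42) and a probe each of Msi1 (-0.54) and Ryk (-0.41). The Tspan8 probe had the opposite sign in the fit made here, at 0.11 ± 0.14 (SE, limma adjusted p = 0.792).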

How the data were processed

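Colon RNA of 4 Mdr1a-/- mice with a high injury score and 4 mice labelled FVB/N with a low score was measured on 2-colour arrays against a common Cy5 reference, per the labels. The deposited array files hold, per the file headers, mean foreground and local background intensity of 44290 spots in each channel, and the authors' normalized log2 ratio. That ratio follows reference over sample (r with log2 Cy5 over Cy3 of 0.72 to 0.844), with medians of 0.0149 to 0.0319 on the arrays, against the deposited description, and was turned in sign. The submitters' processing notes name limma with no version. The authors' deposited table of log2 fold changes, p-values, adjusted p-values and test scores is called log10 in the deposited description, but was read as log2 (slope of 0.87 and r = 0.818 on these arrays without background correction). The image analysis program and genome build are not given in the sources used here.

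Intensities were corrected by normexp with offset 50 and normalized by loess with 2256 control spots and 500 unnamed spots at weight 0 (limma 3.58.1, R 4.3.3). Spots of a probe were averaged, giving 41174 probes. Values are log2(sample / reference). The comparison of 4 against 4 arrays used lmFit and eBayes over all probes, two-sided, with Benjamini-Hochberg adjustment, and called at adjusted p under 0.05. Background was the 95th percentile of 314 negative control spots. No member probe was saturated. The number of arrays limits the precision.

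The members and gene lists were chosen with earlier results of these data known. All marker lists used the brightest probe of each gene. RefSeq accessions of GRCm38.p6 named 70 of the 82 probes. Every called member probe is named, with the brightest probes of 12 chosen genes (of which Olfm4 had none) and the 10 further member probes with the smallest p. Wnt4, Wnt5a, Wnt5b, Wnt2b, Fzd3, Fzd5, Fzd7 and the uncalled genes of the wider list were picked for their roles. Replicate numbers are shared by the groups in the labels but did not pair the mice: correlations of same-numbered deviations were 0.0644, 0.111, 0.0256 and -0.0349. The alternatives were other background, normalization, filter and weight settings, scan day, replicate number and each array left out.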

Additional observations from a re-analysis of the deposited data

Results flagged for a closer look

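In 3 of the 52 groups of 4 arrays examined among the named probes, 1 array stood far from the other 3, and chance gives about 1 in 20. Labelled FVB/N replicate 2 read -0.273 for Sfrp2, where the nearest control array read 0.0894, and it was the control array closest to the Mdr1a-/- arrays. The same array read -0.307 for Tcf7 probe A_52_P244702, where the nearest of the other controls read 0.214. Labelled FVB/N replicate 1 read 0.427 for Apc probe A_52_P675171, with the nearest of the other controls at 0.254.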

How the results depend on the processing

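Scan day as a block, which also takes out Mdr1a-/- replicate 4, the only array of day 1, left 1 member probe higher, 0 lower, 0 and 0 in the wider list, 0 lower among the genes under other names, and 133 higher and 115 lower over all probes; within scan day 2, 2 arrays against 2, each of these counts was 0. The replicate block left the member counts at 2 and 3, and gave 3 lower in the wider list and 310 higher and 286 lower over all probes. Array weights gave 1081 and 939 over all probes and 2 higher in the wider list. With the brightest probe of each gene, 1 member was higher. Leaving out 1 array gave 2 higher and 1 to 3 lower member probes, 1 to 2 and 1 to 5 in the wider list, 0 to 1 and 2 under other names, and 250 to 783 and 247 to 675 over all probes. Without Mdr1a-/- replicate 4 alone, 2 member probes were higher and 1 lower, 1 and 1 in the wider list, and 250 and 247 over all probes; these counts lie between those of all 8 arrays and those of the block, or equal one of them. The second Tcf7l2 probe was lost with normexp offset 16 (adjusted p = 0.0514), Sfrp2 with median centring (adjusted p = 0.0551), and the third Tcf7l2 probe was called with no background correction (adjusted p = 0.0474).

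No called probe turned in sign. Uncalled values near 0 did: Rspo3 to 0.00614 (local subtraction), 0.0038 (deposited ratios), 0.00918 (scale normalization), 0.05002 (array weights) and 0.00155 (scan day block), and Ephb2 to 0.035 (array weights). With 1 array left out, Rspo3 ran from -0.0697 to 0.0692, Ephb2 from -0.222 to 0.162 and Ascl2 from -0.187 to 0.0346. The cause was not tested. Putting unnamed spots at weight 1, chosen after seeing the data, kept each count within 1.5 times. With 4 arrays a group and 43 of 82 member probes above background throughout, changes in the dim ligands could be missed.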
